A study of Mus musculus with 6 samples.

Results

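The genes described here encode the glycosyltransferases that start, branch, extend and cap mucin-type and related glycans. They were taken as every gene of the deposited table whose symbol begins with Galnt, C1galt, Gcnt, B3gnt, B4galt, B3galt, Fut, St3gal, St6gal, St6galnac or St8sia followed by a digit. This gave 72 of the 18268 listed genes, and all 72 mouse protein-coding genes with such symbols in RefSeq were in the table. The level of each gene was measured by RNA sequencing of whole colorectal tissue from 6 C57BL/6 mice, described in the methods as adult males. All 6 mice received dextran sulfate sodium (DSS), which damages the colonic epithelium and so causes colitis, for 7 days, and each was gavaged with a drug for 6 days. For 3 mice this was berberine (BBR), an alkaloid from plants, and for the other 3 it was sulfasalazine (SASP), a standard drug for ulcerative colitis that gut bacteria cleave to an aminosalicylate, given at a higher dose than BBR. Healthy mice and colitis mice without a drug were not analysed here, so each difference is one between the drugs in injured tissue. The tissue was not sorted, so epithelium, muscle, stroma and immune cells contributed together.

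Mucin-type glycans are built one sugar at a time in the Golgi. GalNAc transferases (Galnt) attach the first sugar to a serine or threonine of the mucin, C1galt1 turns it into core 1, Gcnt enzymes add branches, and B3gnt and B4galt enzymes alternate to lengthen the chain. Fucosyltransferases (Fut) and sialyltransferases (St) then cap the chain ends, and the caps influence which microbes and lectins can bind to the mucus and the cell surface. Several relatives in the same families work on N-glycans, glycolipids or proteoglycans instead. In the colon, goblet cells and surface colonocytes use many of these enzymes to build the mucus layer and the cell coat.

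The estimated depth was similar in all libraries, 16400000 to 18200000 reads, and 11518 to 12307 genes per mouse reached 1 FPKM (fragments per kilobase of a gene's transcript, made relative to sequencing depth, so that levels can be compared between genes). The libraries of BBR mice 1 and 2 correlated across genes at r = 0.987, whereas BBR mouse 3 correlated with them at 0.953 and 0.949, so results are also given without BBR mouse 3. Markers of colon were high in every mouse, with a summed level of 5260 to 9880 FPKM for 7 colonocyte genes and 10100 to 23400 FPKM for 12 goblet cell genes, and neither list had a gene past the threshold between the drugs. Among the lists of other cell types, 3 of 7 fibroblast genes (Col1a1, Lum, Thy1) and 1 of 5 tested endothelial genes (Emcn) were higher in BBR mice, and 2 of 5 tested genes of the crypt base and proliferation (Top2a, Pcna), 1 of 8 tested macrophage and granulocyte genes (S100a8) and 1 of 5 tested B and plasma cell genes (Cd79b) were lower. Over all 12072 genes tested, 3.82% were higher and 5.04% lower. The 8 smooth muscle genes all had a positive log2 fold change (median 1.38), but 0 of them passed.

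Transcripts of 46 of the 72 glycosyltransferase genes were abundant enough to be tested, meaning 1 FPKM or more in at least 3 of the 6 mice. Of these, 5 differed between the drugs at an adjusted p under 0.05. The sialyltransferases St3gal3 and St6gal1 and the GalNAc transferases Galnt6 and Galnt7 were higher in BBR mice, and the N-acetylglucosaminyltransferase B3gnt3 was lower. The 5 genes were 10.9% of the members tested, against 8.86% of all 12072 genes tested. In all genes 3.82% were higher and 5.04% were lower in BBR mice, so the share of members called was close to that of the transcriptome. The median difference, expressed as the log2 fold change of BBR minus SASP on the log2(FPKM + 1) scale, was 0.08 for the members, with 25 of 46 above 0, and 0.10 for all genes tested. In bulk tissue, fewer cells of a type and less RNA per cell cannot be told apart. Dividing the libraries by median-ratio size factors shifted the median of all genes by -0.12 and gave 3 higher and 2 lower members, and quantile normalization gave 5 higher and 0 lower.

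**Figure D1:**
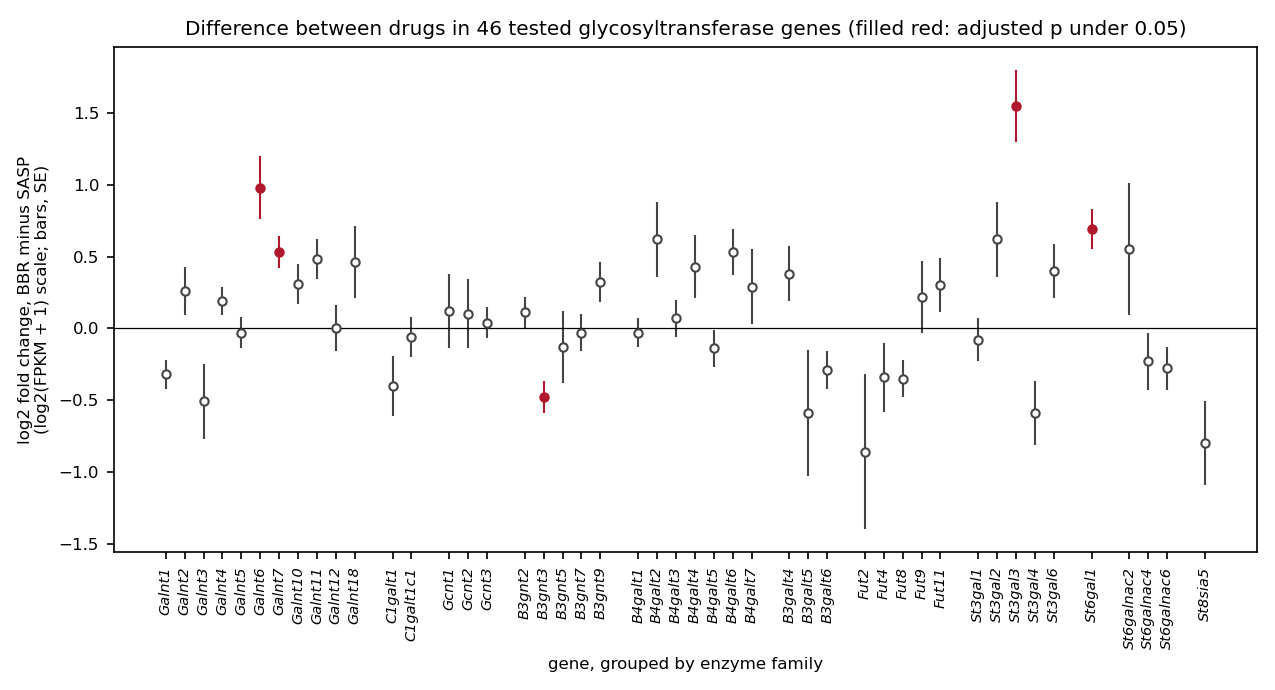
Log2 fold change (BBR minus SASP, log2(FPKM + 1) scale) of the 46 tested genes, ordered by enzyme family, with bars showing the standard error. Filled red points are the 5 genes past the threshold, and the other 41 lie between -0.86 and 0.62.

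The largest difference among the members was that of St3gal3, which adds sialic acid in alpha-2,3 linkage to the galactose of chain ends. Its level was 32.88, 29.21 and 34.48 FPKM in BBR mice 1, 2 and 3 and 7.18, 15.47 and 9.68 FPKM in SASP mice 1, 2 and 3. Every BBR mouse was thus above every SASP mouse, and the lowest BBR value was well clear of the highest SASP value. The means were 32.2 ± 2.70 and 10.8 ± 4.25 FPKM (SD, n = 3 per drug), a log2 fold change of 1.55 with a standard error of 0.25 (limma, adjusted p = 0.0186). About 1220 to 1480 reads per BBR library and 324 to 718 per SASP library stood behind these values, estimated from transcript length and depth. The call was lost without BBR mouse 1 (adjusted p = 0.0671), SASP mouse 1 (adjusted p = 0.0578) or SASP mouse 3 (adjusted p = 0.0846, limma), while the fold change stayed at 1.32 or more. St6gal1, which adds sialic acid in alpha-2,6 linkage to N-glycans, was at 25.62, 27.31 and 22.95 FPKM with BBR and at 13.86, 18.17 and 14.09 FPKM with SASP. Again the groups did not overlap, and SASP mouse 2 was the highest of its group. The log2 fold change was 0.69 with a standard error of 0.14 (limma, adjusted p = 0.0324).

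Both GalNAc transferases past the threshold start or extend O-glycosylation. Galnt7, which prefers peptides that already carry a GalNAc, was the most abundant of its family, at 66.6, 65.61 and 61.18 FPKM with BBR and 42.76, 49.73 and 41.22 FPKM with SASP. Values within each group lay close together, and its log2 fold change of 0.53 had a standard error of 0.11 (limma, adjusted p = 0.0345). Galnt6, another enzyme that attaches the first GalNAc, was at 40.51, 37.27 and 32.59 FPKM in BBR mice and at 14.19, 26.0 and 16.1 FPKM in SASP mice. The SASP mice were the more variable group for this gene, with mouse 2 above the others. Its log2 fold change was 0.98 with a standard error of 0.22 (limma, adjusted p = 0.0428).

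B3gnt3, which extends core 1 O-glycans with N-acetylglucosamine, was the one member lower with BBR. Its values were 133.39, 131.76 and 156.01 FPKM in BBR mice and 193.35, 195.9 and 197.54 FPKM in SASP mice. The SASP mice were nearly identical, and BBR mouse 3 was nearest to them. The log2 fold change was -0.48 with a standard error of 0.11 (limma, adjusted p = 0.0412). The calls of St6gal1, Galnt6 and Galnt7 were each lost when BBR mouse 1, BBR mouse 2, SASP mouse 1 or SASP mouse 3 was left out, and that of B3gnt3 when any mouse other than BBR mouse 3 was. With no filter, B3gnt3 (adjusted p = 0.0576) and Galnt6 (adjusted p = 0.0690, limma) were not called. B3gnt3 also missed the threshold after quantile normalization (adjusted p = 0.0533) and without the variance trend (adjusted p = 0.0505), and Galnt7 missed it after median-ratio scaling (adjusted p = 0.0504, limma). All 5 kept their direction in each of these fits. Over the same mice, the summed level of the fibroblast list was 183, 258 and 182 FPKM with BBR and 81.2, 147 and 139 FPKM with SASP, and that of 8 smooth muscle genes was 2800, 2890 and 6650 against 711, 2230 and 1630 FPKM. The pan-epithelial list, in contrast, overlapped, at 5440 to 5840 and 5370 to 6290 FPKM, although Krt18 in it was higher and Vil1 lower with BBR. In BBR mouse 3, where the muscle markers were highest, St3gal3 was at 34.48 FPKM beside 32.88 and 29.21 FPKM in BBR mice 1 and 2. In SASP mice 1, 2 and 3 it was at 7.18, 15.47 and 9.68 FPKM, the same order as their muscle and fibroblast sums. Galnt6 and St6gal1 also had that order in SASP mice, while Galnt7 and B3gnt3 did not. In BBR mice the order of St3gal3 was not that of the muscle or fibroblast sums. Apart from these values, the part of muscle, fibroblasts and epithelium in the results was not tested.

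**Figure D2:**
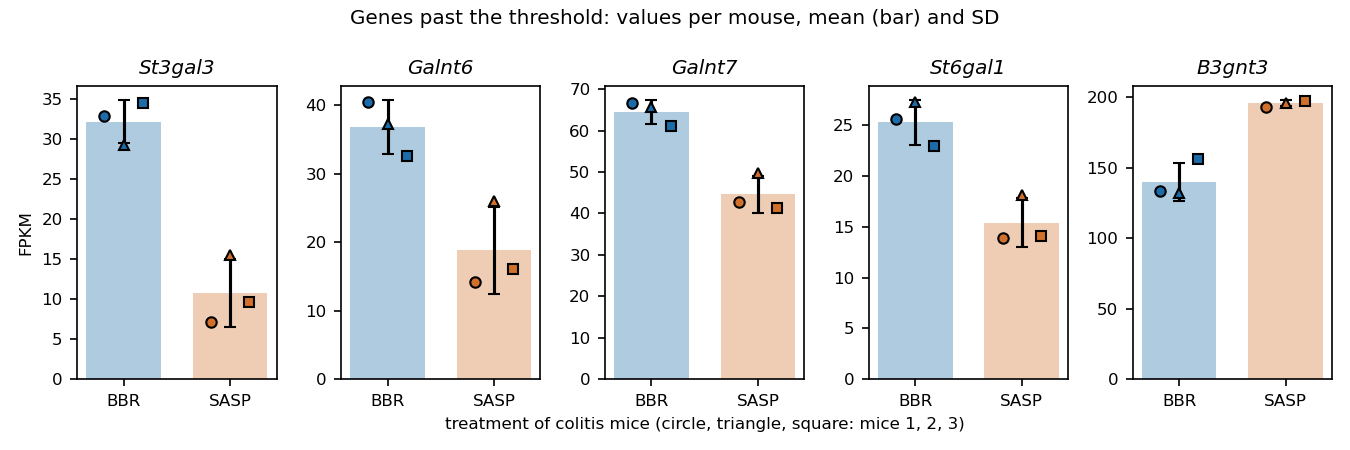
FPKM of the 5 glycosyltransferase genes past the threshold, with a bar at the group mean, the SD as error bar (n = 3 per drug) and a symbol per mouse. In each panel the BBR mice and the SASP mice occupy separate ranges, and B3gnt3 is the only panel with the SASP mice on top.

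The promoters of the 4 genes that were higher with BBR are shown because their transcripts moved the same way. Each sequence is the 250 bases before the most upstream RefSeq transcript start (assembly GRCm38.p6), read 5′ to 3′ along the gene, and capitals mark the GC box, GGGCGG on either strand.
St3gal3, chr4:118134947-118135196, minus strand: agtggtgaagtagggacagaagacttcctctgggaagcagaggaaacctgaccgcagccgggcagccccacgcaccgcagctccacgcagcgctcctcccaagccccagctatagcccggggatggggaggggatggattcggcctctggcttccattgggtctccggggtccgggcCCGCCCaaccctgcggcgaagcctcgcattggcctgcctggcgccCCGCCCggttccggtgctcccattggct
Galnt6, chr15:100729377-100729626, minus strand: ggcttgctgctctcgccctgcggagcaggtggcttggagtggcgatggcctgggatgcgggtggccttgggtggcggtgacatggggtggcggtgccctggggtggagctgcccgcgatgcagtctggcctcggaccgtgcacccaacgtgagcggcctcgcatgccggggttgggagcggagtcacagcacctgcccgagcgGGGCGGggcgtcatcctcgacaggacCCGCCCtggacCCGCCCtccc
Galnt7, chr8:57653056-57653305, minus strand: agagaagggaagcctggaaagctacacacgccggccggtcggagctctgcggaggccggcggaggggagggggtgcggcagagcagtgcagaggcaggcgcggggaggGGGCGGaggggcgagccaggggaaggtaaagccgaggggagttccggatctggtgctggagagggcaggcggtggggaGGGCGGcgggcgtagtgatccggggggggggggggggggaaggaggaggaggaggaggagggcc
St6gal1, chr16:23224490-23224739, plus strand: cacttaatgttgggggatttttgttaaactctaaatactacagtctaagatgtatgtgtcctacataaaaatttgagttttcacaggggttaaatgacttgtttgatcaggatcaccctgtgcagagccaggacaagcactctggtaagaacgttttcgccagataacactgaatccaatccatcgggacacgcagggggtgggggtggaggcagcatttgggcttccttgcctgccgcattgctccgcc
The GC box is the core of the sequence that Sp1-type factors bind. It occurred in St3gal3, Galnt6 and Galnt7, beginning 10 to 142 bases before the start, and also once in B3gnt3, but not in St6gal1. It was present in 33.0% of the same windows of 27025 genes and in 61.5% of the 52 members that had a promoter in the RefSeq table. The promoters of St3gal3, Galnt6 and Galnt7 were rich in G and C (68.4%, 72.8% and 73.6%), whereas St6gal1 had 47.2%, below the median of 52.0% over all genes. The STAT-type GAS motif TTCNNNGAA (7.14% of all windows), the E-box CACGTG (6.04%) and the TATA box TATAAA (13.0%), each searched on both strands, were found in 0 of the 5 called genes and in 3, 4 and 1 of the 52 members. These matches describe the letters in the windows, and binding was not measured.

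Among families with 3 or more tested genes, Galnt was the one whose summed FPKM, as deposited, was higher in all BBR mice than in any SASP mouse. Its 17 genes together reached 282.6, 285.7 and 279.5 FPKM in BBR mice and 226.4, 260.7 and 229.8 FPKM in SASP mice. This sum was carried by 11 tested genes, of which 2 were higher, 0 were lower and 7 had a positive fold change. The median of 0.26 became 0.13 after median-ratio scaling and also without SASP mouse 1. Dividing the sums by the size factors of that scaling (1.146 for BBR mouse 2, 0.9906 for SASP mouse 2) ended their separation. Within the family, Galnt6 was 11.7% to 14.3% of the sum in BBR mice and 6.27% to 9.97% in SASP mice. These shares rest on the same Galnt6 values as its call and were not tested. Galnt1, a broadly expressed starter enzyme, had the opposite order, at 26.32, 28.88 and 28.19 FPKM with BBR and 38.82, 33.08 and 33.41 FPKM with SASP. Its groups did not overlap, but its log2 fold change of -0.32 did not pass the threshold (limma, adjusted p = 0.0903). Galnt11 came closest to the threshold among members not called, with 8.64 to 10.16 FPKM against 5.59 to 7.62 FPKM (log2 fold change 0.48, limma adjusted p = 0.0756). It was called after quantile normalization.

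The other Galnt genes gave no call. Galnt4, which like Galnt7 acts on partly glycosylated peptides, was second in level at 42.35 to 47.28 FPKM with BBR and 35.85 to 42.08 FPKM with SASP, groups that were separate by a narrow margin. Galnt3, whose known substrates include Fgf23, was at 13.12 and 11.7 FPKM in BBR mice 1 and 2 but at 24.96 FPKM in BBR mouse 3, above the 21.78 to 23.78 FPKM in SASP mice. For Galnt5 and Galnt12 the estimates were near 0, with 95% intervals of -0.29 to 0.23 and -0.37 to 0.37 on the log2 scale. Galnt2, Galnt10 and Galnt18 had log2 fold changes of 0.26, 0.31 and 0.46 and overlapping groups.

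The enzymes that build the cores and branches showed no member past the threshold. C1galt1, the core 1 synthase, was at 40.81, 34.13 and 60.68 FPKM with BBR and at 63.03, 57.65 and 53.89 FPKM with SASP. BBR mouse 3 again lay among the SASP mice, and the log2 fold change of -0.40 had a standard error of 0.21 (limma, adjusted p = 0.226). Its chaperone C1galt1c1 (Cosmc), without which core 1 synthase is not active, was within 26.0 to 36.37 FPKM in all mice, and the 95% interval of its fold change was -0.38 to 0.26. Gcnt3, the mucin-type branching enzyme that makes core 2 and core 4, varied little between mice. It was at 28.21, 28.05 and 33.37 FPKM in BBR mice and 27.4, 28.38 and 31.38 FPKM in SASP mice, with an interval of -0.23 to 0.30. Gcnt1, the core 2 enzyme of leukocytes and many other cells, ranged from 16.95 to 34.51 FPKM within the BBR group alone, and its interval of -0.49 to 0.73 was correspondingly wide. Gcnt2, which branches the I antigen, was at 11.45 to 21.04 FPKM and also overlapped. B3gnt6, which makes core 3, a core known from the colon, was listed at 0.34, 0.39 and 0.18 FPKM with BBR and 0.15, 0.15 and 0.07 FPKM with SASP, values that correspond to about 2.79 to 15.2 reads and lay below the filter. With no filter it was not called (log2 fold change 0.21, limma adjusted p = 0.134).

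Among the chain-extending enzymes, the most abundant B3gnt gene was B3gnt7, which lengthens keratan sulfate-type chains. It was at 198.28, 219.1 and 182.88 FPKM in BBR mice and at 182.57, 197.41 and 234.22 FPKM in SASP mice. The groups overlapped almost fully (log2 fold change -0.03, 95% interval -0.34 to 0.29), so the lower sum of the B3gnt family with BBR, 435.6 to 457.8 against 485.0 to 527.2 FPKM, came mainly from B3gnt3. The remaining tested genes of that family were B3gnt2, which makes poly-N-acetyllactosamine (log2 fold change 0.11), B3gnt5, the starter of lacto-series glycolipids (-0.13), and the weakly expressed B3gnt9 (0.32), which was separate between groups but not called (limma, adjusted p = 0.167).

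All 7 B4galt genes were tested and 0 passed, although 5 had a positive fold change. Their median of 0.29 became 0.16 after median-ratio scaling and 0.09 without BBR mouse 2. B4galt1, the main galactosyltransferase of N-acetyllactosamine, supplied 57.9% to 64.9% of the family sum. Its level was 100.92, 113.47 and 106.84 FPKM with BBR and 115.31, 106.37 and 106.94 FPKM with SASP. These values are indistinguishable given their spread, with an interval of -0.26 to 0.20 for the log2 fold change. B4galt6, a lactosylceramide synthase, was at 7.77, 8.88 and 11.22 FPKM in BBR mice and 5.76, 6.84 and 5.68 FPKM in SASP mice. The groups were separate, with BBR above, but the log2 fold change of 0.53 did not pass (limma, adjusted p = 0.0767). B4galt7, which builds the linkage of glycosaminoglycans to proteins, split the BBR group, at 9.17 and 10.37 FPKM in mice 1 and 2 and 4.66 FPKM in mouse 3.

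In the B3galt family B3galt5, which makes type 1 chains on mucins and glycolipids, accounted for 96.0% to 98.9% of the summed level. It was at 176.37, 122.11 and 429.68 FPKM in BBR mice and at 276.96, 402.41 and 285.6 FPKM in SASP mice. BBR mouse 3 held the highest value of all 6 and was 2.88 times the mean of BBR mice 1 and 2, so the log2 fold change of -0.59 carried a standard error of 0.44 (limma, adjusted p = 0.375). B3galt6, a linkage enzyme of glycosaminoglycans, was low but separate, at 1.05 to 1.22 FPKM against 1.45 to 1.76 FPKM, and was not called (log2 fold change -0.29, limma adjusted p = 0.173). B3galt4, which makes the ganglioside GM1, was at 1.68 to 3.3 FPKM over all mice.

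**Figure D3:**
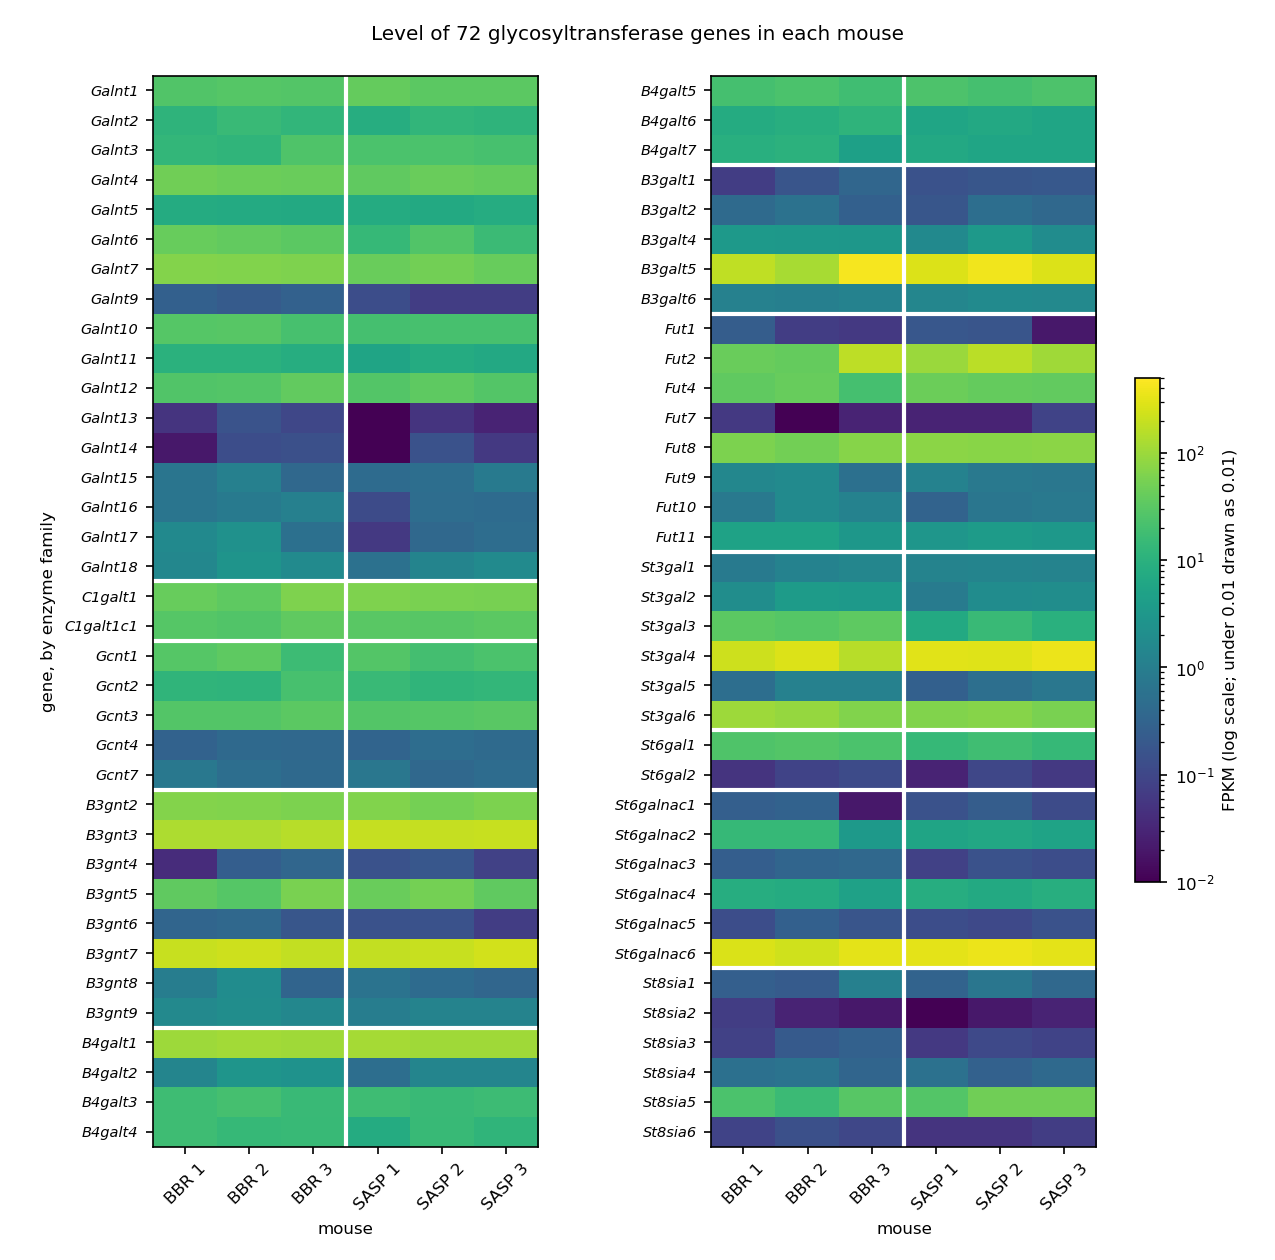
Level of all 72 genes in each of the 6 mice, as colour on a log scale of FPKM, with white lines between enzyme families and between the drugs. The brightest rows are B3galt5, St3gal4, St6galnac6, B3gnt7, B3gnt3, B4galt1 and Fut2, each with a mean above 100 FPKM, and 26 dark rows fell below the filter.

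Fucosyltransferases had 5 tested genes and 0 calls. Fut2, the secretor enzyme that makes the H antigen on intestinal mucins, was the most abundant of the family and the most variable. Its level was 42.66, 38.58 and 167.87 FPKM with BBR and 97.02, 162.16 and 107.11 FPKM with SASP. BBR mice 1 and 2 were the lowest of all, while BBR mouse 3, at 4.13 times their mean, was the highest. The pooled log2 fold change was therefore uncertain, at -0.86 with a standard error of 0.54 (limma, adjusted p = 0.310). Fut8, which adds core fucose to N-glycans, was at 58.14, 50.49 and 69.0 FPKM in BBR mice and 76.46, 72.03 and 76.65 FPKM in SASP mice. All BBR values were below all SASP values, without passing the threshold (log2 fold change -0.35, limma adjusted p = 0.121). Fut4, an enzyme of the Lewis x structure, was at 35.75, 40.73 and 20.46 FPKM with BBR and 36.7 to 43.88 FPKM with SASP, and here BBR mouse 3 was lowest.

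Of the 10 sialyltransferase genes tested, St3gal3 and St6gal1, described above, were higher with BBR and 0 were lower. The shares over all genes tested were 3.82% higher and 5.04% lower. Within the St3gal family, St3gal4, which caps the galactose of N-acetyllactosamine chains, was the dominant transcript at 222.32, 280.88 and 154.4 FPKM in BBR mice and 313.51, 296.42 and 357.93 FPKM in SASP mice. All BBR mice were below all SASP mice, but the difference of -0.59 on the log2 scale did not pass (limma, adjusted p = 0.120), although it did after median-ratio scaling (-0.73, limma adjusted p = 0.0449). St3gal6, which acts on similar chain ends, was at 103.2, 89.23 and 63.52 FPKM with BBR and 65.13, 70.2 and 55.63 FPKM with SASP. It overlapped through BBR mouse 3 (log2 fold change 0.40, limma adjusted p = 0.199). The make-up of the St3gal family was separate between the drugs. St3gal4 was 61.5%, 69.3% and 59.8% of the family sum in BBR mice and 80.7%, 76.8% and 83.8% in SASP mice. St3gal3 was 9.09%, 7.20% and 13.3% of it with BBR and 1.85%, 4.01% and 2.27% with SASP. Shares within a family are not independent of one another, and they were not tested. The core 1 sialyltransferases St3gal1 and St3gal2 were low, at means of 1.17 and 3.05 FPKM with BBR and 1.28 and 1.63 FPKM with SASP.

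**Figure D4:**
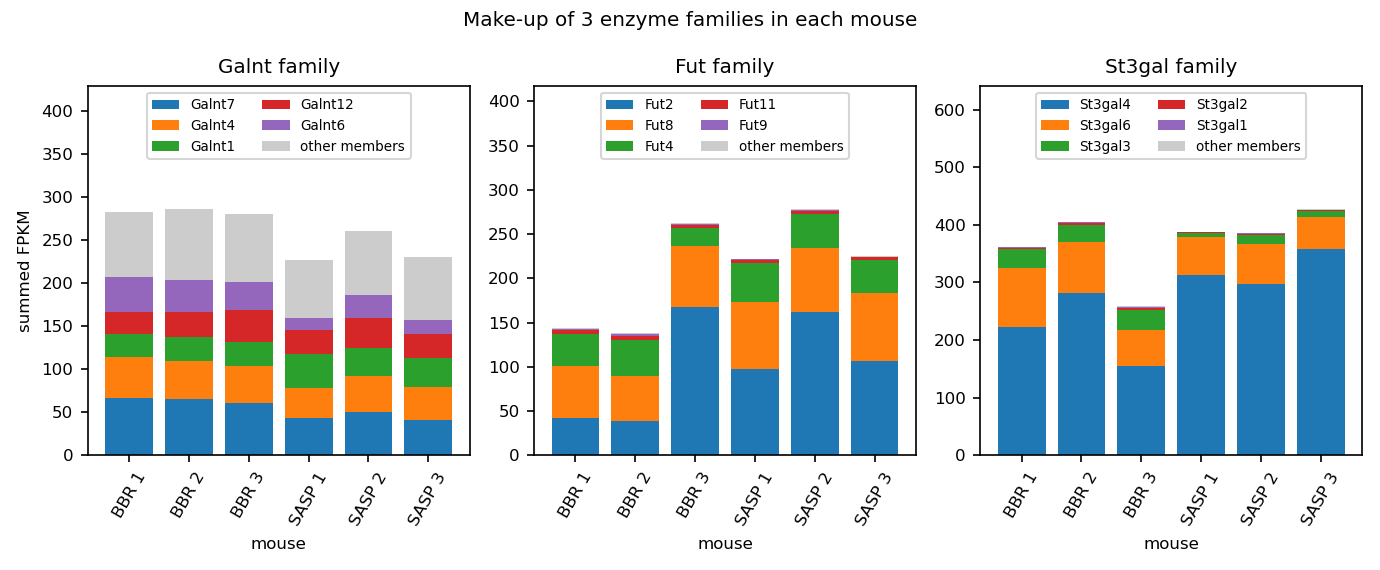
Summed FPKM of the Galnt, Fut and St3gal families in each mouse, stacked by the 5 most abundant genes and the remaining members. The St3gal3 segment is larger in each BBR mouse than in any SASP mouse, and the Fut2 segment is small in BBR mice 1 and 2 only.

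St6galnac6, a sialyltransferase of gangliosides and type 1 chains, had a mean share of 94.7% in its family. It was at 273.94, 232.07 and 327.38 FPKM in BBR mice and 326.17, 357.57 and 317.52 FPKM in SASP mice, overlapping through BBR mouse 3 (log2 fold change -0.28, limma adjusted p = 0.245). St6galnac2, which adds sialic acid to the GalNAc of O-glycans, had the reverse pattern, with 13.89 and 14.18 FPKM in BBR mice 1 and 2, 3.39 FPKM in BBR mouse 3 and 5.28 to 6.63 FPKM in SASP mice. St6galnac4 (log2 fold change -0.23) was not called. St6galnac1, the sialyl-Tn synthase, did not exceed 0.3 FPKM in any mouse. In the St8sia family, which forms chains of sialic acid, only St8sia5, a ganglioside enzyme, was abundant enough to test. It was at 23.8, 15.78 and 30.34 FPKM with BBR and 27.58, 48.79 and 47.32 FPKM with SASP, with the groups overlapping at a single pair of mice (log2 fold change -0.80, standard error 0.29, limma adjusted p = 0.117).

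Leaving out BBR mouse 3 kept all 5 calls among the members and added others. Without this mouse 20 of the 46 tested members were past the threshold, 43.5%, beside 33.6% of all genes in the same fit. Of the members 11 were higher and 9 lower with BBR, and of all genes 22.2% were higher and 11.3% lower. These included all 5 genes named above and 15 others, of which 7 were higher (B4galt6, B4galt7, Fut11, Galnt10, Galnt11, St3gal6, St6galnac2) and 8 lower (B3galt5, C1galt1, Fut2, Fut8, Galnt1, Galnt3, St6galnac6, St8sia5). The log2 fold change of Fut2 became -1.53 (limma, adjusted p = 0.00590), that of B3galt5 -1.11 (limma, adjusted p = 0.0148), that of Galnt3 -0.83 (limma, adjusted p = 0.00308) and that of St6galnac2 1.14 (limma, adjusted p = 0.00249). In the 2 BBR mice left, C1galt1 also passed, at -0.62 (limma, adjusted p = 0.0109). Leaving out a mouse after its values are known is not an independent test. BBR mouse 3 was nearer to the SASP mean than to that of the other BBR mice for 23 of the 46 members and for 51.1% of all genes. The summed colonocyte markers were 9880 FPKM in this mouse against 6350 and 5260 FPKM in BBR mice 1 and 2, and the goblet cell markers 23400 against 13600 and 11900 FPKM. The goblet cell sum rested largely on Zg16, at 11748.42 against 5317.34 and 4135.61 FPKM. Most genes of that list were higher in this mouse, but Atoh1 (18.01 against 24.66 and 28.69 FPKM) and Ang4 (7.3 against 29.71 and 12.23 FPKM) were lower. The part of these cells in the difference between BBR mice was not tested.

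**Figure D5:**
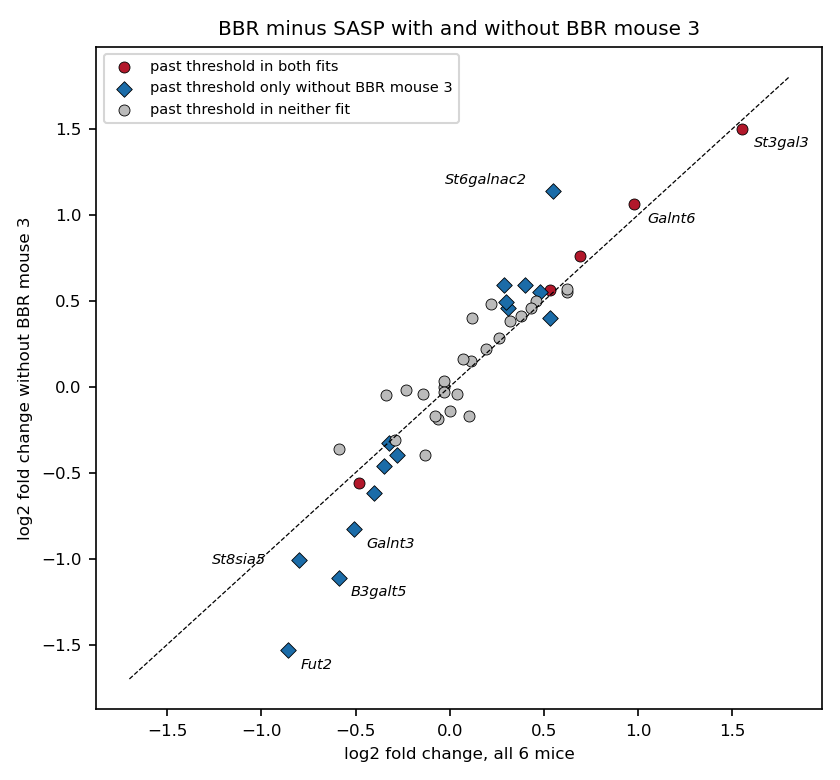
Log2 fold change (BBR minus SASP) of the 46 tested genes with all 6 mice (horizontal) and without BBR mouse 3 (vertical), with a dashed line of equality. Red circles passed the threshold in both fits, and blue diamonds are the 15 genes that passed only without BBR mouse 3, with Fut2 and St6galnac2 farthest from the line.

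Of all 46 tested members, 13 had groups that did not overlap (28.3%), 8 with BBR above and 5 with BBR below, compared with 37.9% of all genes (21.3% above, 16.6% below). The other 26 of the 72 members lay below the filter and reached at most 2.38 FPKM (Galnt17), and 19 of them were under 1 FPKM in every mouse. They include the neural enzymes Galnt9 and Galnt13, the leukocyte fucosyltransferase Fut7, the H enzyme Fut1, the GM3 synthase St3gal5, St6gal2 and the polysialyltransferases St8sia2 and St8sia4. Galnt13, Fut7 and St8sia2 were listed at 0 in some mice. At the estimated depth Fut7 corresponded to at most 3.14 reads per library, so no difference in it was detectable. Of the 26, BBR values were all above SASP values in 6 (Galnt9, Galnt16, Galnt17, B3gnt6, St6galnac3, St8sia6), below them in 0 and overlapping in 20. Of all 6188 genes below the filter with a value above 0 in some mouse, 13.1% had BBR above and 3.46% had BBR below. In the fit with no filter, 0 of the 26 passed (limma, smallest adjusted p = 0.0517, for Galnt9). In that fit 6 of the 26 had an unadjusted p under 0.05 (limma), as did 4683 of all 18260 genes.

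The substrates and relatives of these enzymes were examined through 6 lists, in which 65 genes were tested and 6 passed. The share called among all genes was 8.86% (3.82% higher, 5.04% lower), close to that of these lists. The 6 were 2 higher and 4 lower with BBR, and 5 of them belong to the synthesis of nucleotide sugars, where 1 of 24 tested genes was higher and 4 were lower. Gmds, which opens the synthesis of GDP-fucose, the donor of all Fut enzymes, was at 117.35, 107.0 and 119.6 FPKM with BBR and 274.85, 202.46 and 181.83 FPKM with SASP. Each BBR mouse was well below each SASP mouse (log2 fold change -0.91, standard error 0.16, limma adjusted p = 0.0252). Gmppb, which makes GDP-mannose, had a log2 fold change of -1.13 (limma, adjusted p = 0.0292), with 13.42 to 24.65 FPKM against 34.75 to 41.7 FPKM. Also called, and named after their values were seen, were the mannose phosphate enzymes Mpi (log2 fold change -0.41, limma adjusted p = 0.0455) and Pmm1 (0.67, limma adjusted p = 0.0444). The list as a whole had a median of -0.02, with 11 of 24 genes above 0. All 6 calls were lost when any mouse other than BBR mouse 3 was left out.

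The remaining call was A4galt, the Gb3 synthase, at 20.4, 15.95 and 22.74 FPKM in BBR mice and 10.17, 13.8 and 11.32 FPKM in SASP mice. It just passed (log2 fold change 0.69, limma adjusted p = 0.0499) and lost its call with a pseudocount of 0.1, with no filter, under either scaling and without the variance trend. All 9 tested genes of its list of other terminal glycosyltransferases were above 0 (median 0.34), Abo (0.76) and B3galnt1 (0.71) included, but no other passed. Nucleotide sugar transporters (0 of 10 called), glycan sulfotransferases (0 of 5) and glycosidases (0 of 11) had medians of 0.06, 0.05 and 0.11, close to that of all genes. Genes named from these lists were Slc35a4 (-0.36), Slc35d1 (-0.43) and Slc35a1 (0.26), Chst1 (0.33), Gal3st1 (0.36) and Chst4 (-0.23), and Siae (0.58) and Neu1 (0.42), with adjusted p from 0.0788 to 0.603 (limma).

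Mucins, the proteins that carry these glycans, had 6 tested genes and 0 calls. Muc2, the main secreted mucin of the colon, was at 659.62, 606.06 and 1168.26 FPKM with BBR and 612.54, 789.68 and 809.37 FPKM with SASP. BBR mouse 3 was the highest, the groups overlapped, and the log2 fold change of 0.08 (limma, adjusted p = 0.847) became -0.21 without that mouse. In the membrane mucin Muc13, BBR mice 1 and 2 were lowest, as in Fut2 and B3galt5, with 1625.05, 1296.05 and 3503.97 FPKM in BBR mice and 3260.9 to 3562.76 FPKM in SASP mice (log2 fold change -0.80, limma adjusted p = 0.183). Muc3a, another membrane mucin, was at 48.37, 21.65 and 67.31 FPKM against 11.52, 23.06 and 12.89 FPKM (log2 fold change 1.40, limma adjusted p = 0.0807). Muc3, listed as a separate gene and named after its values were seen, was far more abundant, at means of 1280 and 946 FPKM. Its groups overlapped (log2 fold change 0.42, limma adjusted p = 0.203). Muc1 had a log2 fold change of -0.46 (limma, adjusted p = 0.202), and Muc5b was listed at 0 in all mice.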

How the data were processed

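RNA was sequenced from colorectal tissue of 3 BBR and 3 SASP mice. The authors calculated FPKM per gene and deposited them rounded, from reads aligned with Bowtie2 2.2.5 and quantified with RSEM 1.2.12. The methods name ribosomal RNA depletion and single-end nanoball sequencing, the labels an Illumina kit, and which applied cannot be told from the table. The submitters' processing notes name mm9, but the table has no coordinates. RSEM divides reads shared by related genes, which leaves close paralogs less certain. The paper's threshold was an unadjusted p.

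FPKM are not counts, so log2(FPKM + 1) was compared with limma 3.58.1 (R 4.3.3), a linear model with moderated variances that follow expression level, over the 12072 genes that reached 1 FPKM in 3 or more of the 6 mice. P-values were two-sided and adjusted over all genes tested (Benjamini-Hochberg, threshold 0.05). The log scale understates changes of low genes. The fit was tested on simulated data. Depth was estimated as a median over short genes seen in 1 sample only, each taken as 1 read, and is approximate. Groups came from the treatment labels. Replicate numbers follow accession order and pair no mice. P-values set the difference between the drugs against the moderated spread between samples of the same drug. The labels do not say how mice were housed or processed, so an effect of either cannot be told apart from that of the drugs. An exact permutation test of 3 against 3 cannot go below p = 0.10 and was not used.

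Members and gene lists were chosen with earlier results of these data known. Named with values were called members, the most abundant member and the one with the smallest p of each family, up to 3 genes of smallest p per related list, and Muc2. The selected gene of 2 related lists is not reported here. Values per mouse of other members were added after they were seen. Alternatives were another pseudocount, filter, scaling, variance trend, array weights, threshold, and leaving out each mouse. Promoters were matched by gene ID to RefSeq.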

Additional observations from a re-analysis of the deposited data

How the results depend on the processing

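No paired analysis was possible because the labels give the mice no shared replicate numbers. The number of members past the threshold was 5 with the chosen settings. It was 3 with no filter on low values, 13 (8 higher, 5 lower) at an unadjusted p of at most 0.05, and 31 (18 higher, 13 lower) with array quality weights, which gave BBR mouse 3 the lowest weight. Leaving out each mouse gave 0 to 20: 0 without BBR mouse 1, SASP mouse 1 or SASP mouse 3 (limma, with 9, 8 and 9 at an unadjusted p under 0.05), 1 without BBR mouse 2, 4 without SASP mouse 2 and 20 without BBR mouse 3. The 5 calls are therefore sensitive to single mice, and only the direction of each was kept in every fit. Of all 12072 genes tested, 3180, 2457 and 2696 had an unadjusted p under 0.05 (limma) without BBR mouse 1, SASP mouse 1 and SASP mouse 3. For all genes, 1069 became 608 with no filter, 1683 (499 higher, 1184 lower) after median-ratio scaling, 1737 after quantile normalization, 7126 with array weights, 3837 at the unadjusted threshold and 96 to 4051 when a mouse was left out. For the related genes, 6 became 1 with no filter, 44 with array weights, 20 at the unadjusted threshold and 0 to 25 when a mouse was left out.

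The log2 fold changes of 4 members with differences near 0, and of Muc2, changed sign under the alternatives given here, as did those of 8 other members (Galnt5, Galnt12, C1galt1c1, Gcnt2, B3gnt2, B3gnt5, B4galt3 and St3gal1), all 12 being within 0.13 of 0. Gcnt3 (0.04) became -0.09 after median-ratio scaling, -0.11 with array weights, -0.04 without BBR mouse 3 and -0.00 without SASP mouse 1 (-0.04 to 0.09 over the fits that left out a mouse). Gcnt1 (0.12) became -0.01 after median-ratio scaling and -0.09 without BBR mouse 2 (-0.09 to 0.40 over those fits). B3gnt7 (-0.03) became 0.08 after quantile normalization, 0.03 without BBR mouse 3 and 0.07 without SASP mouse 3 (-0.11 to 0.07 over those fits). B4galt1 (-0.03) became 0.03 after quantile normalization, 0.01 without BBR mouse 1 and 0.00 without SASP mouse 1 (-0.08 to 0.01 over those fits). Muc2 (0.08) became -0.05 after either scaling, -0.24 with array weights, -0.21 without BBR mouse 3 and -0.04 without SASP mouse 1 (-0.21 to 0.26 over those fits). Of the family medians, that of Gcnt (0.10) became -0.02 and that of all members (0.08) -0.04 after median-ratio scaling, and that of B3gnt (-0.03) became 0.08 after quantile normalization. Without one mouse the Gcnt median ranged from -0.04 to 0.19 and the B3gnt median from -0.11 to 0.07. The cause of these changes was not tested. With 3 mice per drug, differences inside the 95% intervals given above were not excluded.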
